A study of Mus musculus with 4 samples.

Results

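The nuclear genes of the mitochondrial respiratory chain were followed in RAW264.7 cells, a mouse macrophage line, after 48 hours of culture with a hydrogel. They are the subunits of complexes I to V, the assembly factors that carry the same symbol stems, and cytochrome c. Symbols beginning with Nduf, Uqcr, Uqcc, Cox4 to Cox8, Sdhaf or Atp5 and the symbols Sdha to Sdhd, Cyc1 and Cycs were taken, and names of antisense and pseudogene entries were left out. This rule found 111 genes among 40213 symbols, and the 3 pseudogene symbols Ndufab1-ps, Ndufs5-ps and Cox7c-ps1 were not counted. Of the 111 genes, 50 belonged to complex I, 8 to complex II, 15 to complex III, 20 to complex IV and 17 to complex V, and Cycs was counted on its own. Ndufa4 and Ndufa4l2 were placed in complex IV, where the Ndufa4 protein is found in spite of its name.

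The samples were 2 libraries labelled Gel and 2 labelled CuNZ@Gel, all from RAW264.7 cells with no genetic change named. CuNZ is not spelled out in the labels. CuNZ@Gel is also the only material in the treatment text, and the Gel group rests on the sample titles. RAW264.7 is a transformed cell line, and the labels do not say whether the libraries of a group came from separate cultures. The p-values therefore rest on the spread between 2 libraries a group, pooled in part over genes of similar level, and that spread may be technical. Values are scaled CPM, that is CPM divided by a further factor for each library, and tests were made on log2(scaled CPM + 1) with limma, adjusted over all 11588 tested genes.

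Library totals recovered from the values were between 13718000 and 14881000 reads. The 8 macrophage markers summed to 5020 and 5210 scaled CPM in Gel and 8492 and 8201 in CuNZ@Gel. Of the 7 tested, 5 were raised, Lyz2, Itgam, Adgre1, Csf1r and Ptprc, and 2 lowered, Cd68 and Fcgr1. Over all tested genes, 32.2% were raised and 34.8% lowered. Lyz2 was at 3004 and 3155 in Gel and 6000 and 5776 in CuNZ@Gel, and Cd68 at 1002 and 1003 in Gel and 880 and 834 in CuNZ@Gel. The part of this shift in the results was not tested. The 5 fibroblast, 5 epithelial, 4 T cell, 3 B cell and 3 neutrophil markers summed to at most 1.48 scaled CPM in any library and list. Of the 3 endothelial markers, Pecam1 was the 1 that could be tested, and the sum of the list went from 0.0725 and 0.156 in Gel to 2.65 and 1.84 in CuNZ@Gel. Most of that sum in CuNZ@Gel was Pecam1, at 2.21 and 1.40, and the part of this rise in the results was not tested either. Fewer cells expressing a gene and less RNA per cell cannot be told apart in such bulk libraries.

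In oxidative phosphorylation, complexes I and II pass electrons from NADH and succinate to ubiquinone, complex III passes them on to cytochrome c, and complex IV hands them to oxygen. Complexes I, III and IV pump protons, and complex V, the ATP synthase, uses the resulting gradient to make ATP. Complexes I, III, IV and V combine nuclear and mitochondrial gene products, complex II is wholly nuclear, and dedicated assembly factors insert cofactors and join modules without staying in the finished enzyme. Macrophages change their use of this chain with their activation state.

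Most respiratory chain transcripts were lower in CuNZ@Gel than in Gel, and most of the differences were small. Genes were tested where at least 2 libraries reached 1 scaled CPM, which left out 10 of the 111, all named under their complexes. Of the 101 genes tested, 67 were lowered, 6 were raised and 28 were not called, against 34.8% lowered, 32.2% raised and 67.1% called in either direction among all tested genes. The lowered genes included Uqcrq of complex III, Ndufa6 of complex I, the supercomplex factor Cox7a2l, the ATP synthase gene Atp5g2 and the complex II assembly factor Sdhaf1. The median log2 change was -0.35, with quartiles of -0.48 and -0.13, against -0.029 with quartiles of -0.43 and 0.38 over all tested genes. The groups did not overlap, with CuNZ@Gel lower, for 76 genes and did not overlap in either direction for 85, patterns found for 43.5% and 83.2% of all tested genes. Summed over all 111 genes, the level was 13339 and 12852 scaled CPM in Gel and 10005 and 10887 in CuNZ@Gel, a ratio of 0.798. Both CuNZ@Gel libraries were below both Gel libraries in this sum. As a share of all reads the sum was 1.25% and 1.20% in Gel and 1.07% and 1.16% in CuNZ@Gel, so the share was also lower in each CuNZ@Gel library, by a smaller step.

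Large changes were few. A log2 change of -1 or less was found for 6 of the 101 genes, 5.94%, against 6.13% of all tested genes. A test against a minimum fold of 1.5 called 9 genes lowered and 0 raised, against 8.11% lowered, 8.76% raised and 16.9% called in either direction over all tested genes. These 9 genes were Cox6a2, Uqcrq, Cox7a2l, Sdhaf1, Atp5g2, Ndufa6, Ndufs7, Uqcrfs1 and Ndufb10.

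The change of a gene went with the length of its transcript across the tested genes, and respiratory chain transcripts are short. Pearson's r of log2 change with log2 transcript length was 0.31 over the 11109 tested genes with a transcript, which are not independent replicates, and 0.027 over the 98 respiratory chain genes with a transcript. The median transcript length was 936.5 nucleotides for these 98 genes and 3026 nucleotides for all tested genes. Once each library had been corrected for length and GC content of the transcripts, 38 of the 98 genes were lowered and 25 raised, against 36% lowered, 29.7% raised and 65.7% called in either direction among all genes so treated, and the median was -0.042 against -0.046. The members' shares were then near those of all genes. Of the lowered genes with a transcript, 37 were also lowered after the correction, 24 were not called and 5 were raised, while all 6 raised genes were raised in both. The part of transcript length and GC content in the overall lowering was not tested beyond these values. Each complex is therefore given below with its corrected counts.

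With the libraries scaled by total reads only, 45 respiratory chain genes were lowered and 13 raised, against 24.7% lowered, 43.4% raised and 68.1% called in either direction among all tested genes. That scaling moved the median of all tested genes to 0.15 and the median of the 101 genes to -0.17. Relative to the median of all genes, the respiratory chain median was -0.32 with the deposited scaling, -0.32 with total reads only and 0.0041 after the length and GC correction.

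**Figure D1:**
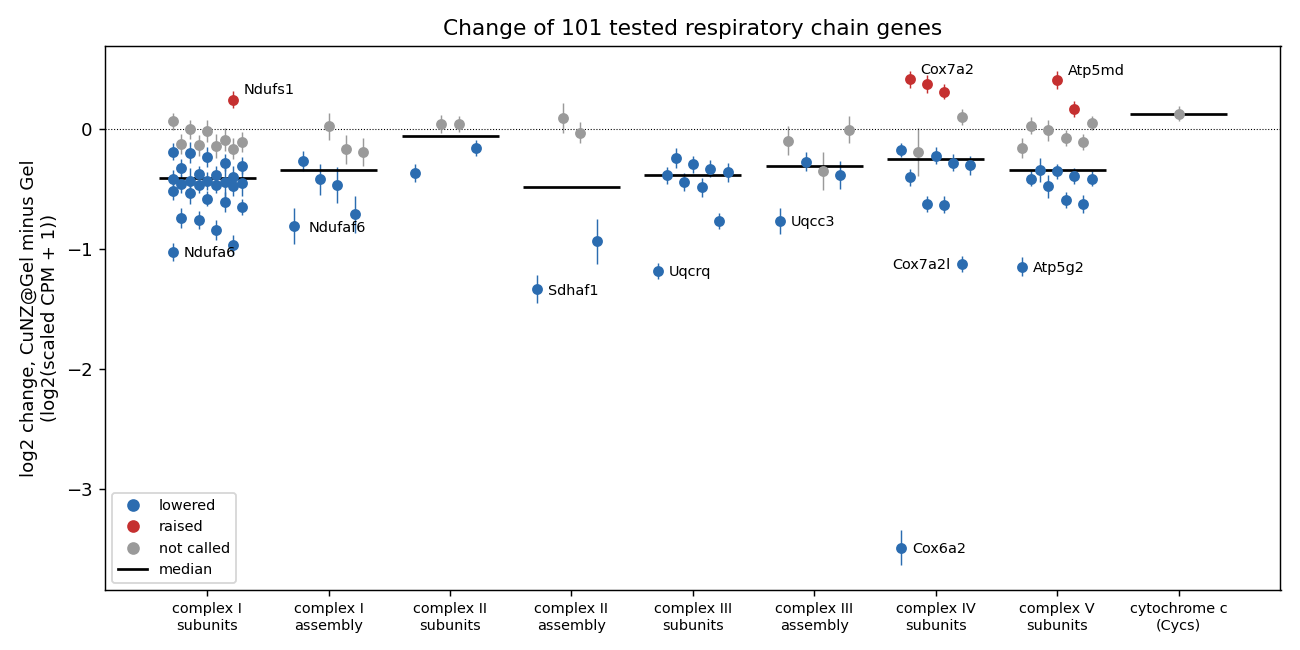
Log2 change of the 101 tested genes by complex, CuNZ@Gel minus Gel on the log2(scaled CPM + 1) scale. Each point is a gene with its standard error from limma over 2 libraries a group, coloured by its call at an adjusted p of 0.05, and black bars are medians. Complex III subunits all lie below 0, complex II has the subunit median nearest to 0, and Cox6a2 at -3.49 lies far below the other genes.

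The promoters of these genes were read for motifs of factors known to act on respiratory genes. NRF1 is a transcription factor of nuclear respiratory genes, GABP is an ETS factor with a similar role, and YY1 is a zinc finger factor that also binds near many of their start sites. RefSeq promoters of build GRCm38.p6, from 250 bases before to 50 bases after the start, were found for 86 of the 111 genes, 91 promoters in all. The full NRF1 motif, the core GCGCATG followed directly by CGC and searched on both strands like the other motifs, was in 7.69% of these promoters, against 0.971% of all 32851 promoters and 2.16% of the promoters of tested genes. The core GCGCATG alone, which also counts every full motif, was in 18.7%, against 3.91% and 7.1%. The YY1 motif AAGATGGC was in 13.2%, against 2.75% and 4.75%. The GABP motif CCGGAAGT was in 5.49%, against 3.89% and 8.68%, so it was not more frequent here than in the promoters of tested genes. The general CCAAT motif was in 42.9%, against 37.4% and 38.5%. A match describes the letters only, and shows neither binding nor a cause of a change.

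The NRF1 motif was present in promoters of genes with different calls. Among the 7 genes with the full motif, Atp5g2, Cox6a1, Ndufa11, Ndufaf4 and Uqcrc1 were lowered, and Atp5k and Ndufaf5 were not called. The YY1 motif was in 6 of 55 promoters of lowered genes and 6 of 27 promoters of genes not called. The GABP motif was in 5 of 55 promoters of lowered genes and 0 of 27 promoters of genes not called. No test was made on these counts. None of these motifs but CCAAT was in the 5 promoters found for raised genes. The 6 promoters below were chosen to show this: Atp5g2, a lowered gene of the c ring at chr15:102670998-102671297 on the minus strand, Cox6a1, lowered in complex IV at chr5:115348909-115349208 on the minus strand, Atp5k, not called, at chr5:108434350-108434649 on the minus strand, Cycs, not called and with the core alone, at chr6:50566520-50566819 on the minus strand, Ndufs7, lowered and with the YY1 motif, at chr10:80249199-80249498 on the plus strand, and Cox7a2, raised and with no match, at chr9:79759804-79760103 on the minus strand. Each is written 5′ to 3′ along the gene, and capitals mark matches to the NRF1, GABP or YY1 motif on either strand.
Atp5g2: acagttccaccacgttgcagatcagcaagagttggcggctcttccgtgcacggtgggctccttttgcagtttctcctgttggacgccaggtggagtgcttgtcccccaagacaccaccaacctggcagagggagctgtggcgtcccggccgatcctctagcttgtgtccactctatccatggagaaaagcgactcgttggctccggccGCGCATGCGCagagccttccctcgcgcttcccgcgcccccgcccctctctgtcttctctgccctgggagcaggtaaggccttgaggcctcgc
Cox6a1: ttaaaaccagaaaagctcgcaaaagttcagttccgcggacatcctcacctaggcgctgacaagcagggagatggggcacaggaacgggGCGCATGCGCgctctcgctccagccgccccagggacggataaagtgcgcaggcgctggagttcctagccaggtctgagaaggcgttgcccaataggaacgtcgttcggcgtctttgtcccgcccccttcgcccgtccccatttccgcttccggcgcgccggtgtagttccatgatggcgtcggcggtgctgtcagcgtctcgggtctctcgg
Atp5k: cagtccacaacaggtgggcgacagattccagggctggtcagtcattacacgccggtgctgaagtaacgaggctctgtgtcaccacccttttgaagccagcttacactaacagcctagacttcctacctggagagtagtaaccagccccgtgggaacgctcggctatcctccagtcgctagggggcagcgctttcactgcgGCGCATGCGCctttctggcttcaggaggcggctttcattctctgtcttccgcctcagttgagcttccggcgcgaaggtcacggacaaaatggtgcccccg
Cycs: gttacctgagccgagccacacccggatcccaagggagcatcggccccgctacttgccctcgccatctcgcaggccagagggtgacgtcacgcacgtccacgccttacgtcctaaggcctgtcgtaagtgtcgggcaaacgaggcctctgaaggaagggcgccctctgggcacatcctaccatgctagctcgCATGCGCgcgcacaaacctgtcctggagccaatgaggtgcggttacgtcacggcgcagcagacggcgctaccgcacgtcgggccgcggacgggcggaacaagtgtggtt
Ndufs7: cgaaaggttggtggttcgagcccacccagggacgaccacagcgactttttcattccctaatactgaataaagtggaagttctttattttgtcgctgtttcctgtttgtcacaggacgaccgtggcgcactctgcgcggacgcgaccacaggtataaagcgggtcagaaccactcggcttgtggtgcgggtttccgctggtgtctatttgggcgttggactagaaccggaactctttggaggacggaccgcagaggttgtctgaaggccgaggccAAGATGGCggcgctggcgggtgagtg
Cox7a2: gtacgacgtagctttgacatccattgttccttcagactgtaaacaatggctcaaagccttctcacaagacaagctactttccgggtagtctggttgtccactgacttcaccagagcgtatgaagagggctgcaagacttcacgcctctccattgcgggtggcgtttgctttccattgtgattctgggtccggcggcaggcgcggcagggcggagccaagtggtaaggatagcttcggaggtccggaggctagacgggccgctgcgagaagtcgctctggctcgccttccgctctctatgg
Counted from the start site, the match began at -42 in Atp5g2, -162 in Cox6a1, -50 in Atp5k and -59 in Cycs, and at 25 in Ndufs7, within the transcribed part.

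Complex I, the NADH dehydrogenase, had 38 tested nuclear subunits, of which 28 were lowered, 1 was raised and 9 were not called, with a median log2 change of -0.41. Their summed level was 3570 and 3430 scaled CPM in Gel and 2544 and 2765 in CuNZ@Gel, and the groups did not overlap. After the length and GC correction 14 were lowered and 7 raised, with a median of -0.066. The peripheral arm, which oxidises NADH and carries the iron-sulphur clusters, had 14 of 16 genes lowered and 1 raised, with a median of -0.43. The membrane arm, where the nuclear subunits are accessory, had 12 of 20 lowered and 0 raised, with a median of -0.39.

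Within the peripheral arm, the 7 core subunits that hold the redox centres divided 6 lowered to 1 raised. Ndufs7, which carries the iron-sulphur cluster next to the quinone site, was at 114 and 105 scaled CPM in Gel and 51.6 and 59.7 in CuNZ@Gel. Its log2 change was -0.97 ± 0.08 (SE; limma adjusted p = 1.0e-09), and -0.52 after the correction. The CuNZ@Gel libraries were thus about as far apart from each other as the Gel libraries, and well below them. Ndufv2, a cluster-bearing subunit of the NADH-oxidising module, was at 205 and 196 in Gel and 125 and 130 in CuNZ@Gel. This gave a log2 change of -0.65 ± 0.06 (adjusted p = 1.5e-08), and -0.57 after the correction. Ndufs1, the largest subunit of the same module, went the other way, with 101 and 104 scaled CPM in Gel and 121 and 121 in CuNZ@Gel. This was a log2 change of 0.24 ± 0.07 (adjusted p = 0.0030), and 0.21 after the correction. Genes of one enzyme module therefore changed in opposite directions, each without overlap of the groups.

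Among the accessory subunits, which surround the core and are needed for stability, Ndufa6 changed most with the deposited values, and Ndufb2, at -0.67, after the correction. The correction took Ndufb2 at its longest coding transcript of 4371 nucleotides, against 590 for Ndufa6, so this order depends on that choice. Ndufb2 was at -0.45 with the deposited values. Ndufa6 was at 128 and 123 scaled CPM in Gel and 59.1 and 63.4 in CuNZ@Gel, 2.05-fold higher in Gel. This was a log2 change of -1.03 ± 0.07 (adjusted p = 7.1e-11), and -0.60 after the correction. Ndufb10, an accessory subunit of the membrane arm, was at 92.0 and 83.4 in Gel and 45.6 and 51.5 in CuNZ@Gel, with a log2 change of -0.84 ± 0.08 (adjusted p = 1.3e-08) and -0.43 after the correction. Both genes kept the groups apart. In contrast Ndufc1 of the membrane arm was at 51.0 and 50.8 in Gel and 50.7 in each CuNZ@Gel library, and was not called at a log2 change of -0.0055 ± 0.0801 (adjusted p = 0.96). The gene copies Ndufa11b, Ndufb11b, Ndufb4b and Ndufs6b were too low to test, each under 1 scaled CPM in every library. Ndufb4 and its copy Ndufb4c may share reads, so their separate values are uncertain.

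Complex II, the succinate dehydrogenase, which also belongs to the citric acid cycle, had 2 of 4 subunits lowered, 0 raised and a median of -0.062. That median turned to 0.13 with total reads only, when 1 gene was lowered and 2 raised. After the correction 1 was lowered, Sdhc, and 1 raised, Sdhd, with a median of -0.011. The flavoprotein gene Sdha was at 261 and 237 scaled CPM in Gel and 245 and 266 in CuNZ@Gel, so the groups overlapped, and its log2 change was 0.037 ± 0.066 (adjusted p = 0.63). The membrane anchor gene Sdhd was at 106 and 107 in Gel and 103 and 117 in CuNZ@Gel, with a log2 change of 0.040 ± 0.073 (adjusted p = 0.65). Neither gene was called with the deposited values, but with total reads only Sdha was raised at 0.23 (adjusted p = 0.0055) and Sdhd at 0.23 (adjusted p = 0.010), and after the correction Sdhd was raised at 0.27 (adjusted p = 6.0e-04). The iron-sulphur subunit gene Sdhb was at 153 and 157 in Gel and 112 and 128 in CuNZ@Gel, with a log2 change of -0.37 ± 0.07 (adjusted p = 1.1e-04). After the correction Sdhb was at -0.037 and not called. The other anchor gene, Sdhc, was at 110 and 112 in Gel and 101 and 97.7 in CuNZ@Gel, with a log2 change of -0.16 ± 0.07 (adjusted p = 0.042). The call of Sdhc was lost without any library in turn except CuNZ@Gel replicate 1, and its direction turned to 0.027 with total reads only.

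Complex III, the cytochrome bc1 complex, had all 9 of its nuclear subunits lowered, with log2 changes from -1.19 to -0.24 and a median of -0.39. In each of the 9 the groups did not overlap, with CuNZ@Gel lower, a pattern found for 43.5% of all tested genes. The summed level was 1461 and 1365 scaled CPM in Gel and 945 and 1032 in CuNZ@Gel. After the correction 4 were lowered, Uqcrq, Uqcrfs1, Uqcrc2 and Cyc1, and 1 was raised, Uqcr11, with a median of -0.081.

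Uqcrq, a small subunit that contacts cytochrome b, was at 285 and 259 scaled CPM in Gel and 115 and 123 in CuNZ@Gel, 2.29-fold higher in Gel. Its log2 change was -1.19 ± 0.07 (adjusted p = 2.0e-12), and -0.99 after the correction. Uqcrq thus changed more than any other subunit of its complex under both treatments of the values. Uqcrfs1, the Rieske iron-sulphur protein, was at 134 and 136 in Gel and 79.3 and 78.2 in CuNZ@Gel, with a log2 change of -0.77 ± 0.07 (adjusted p = 2.8e-09) and -0.58 after the correction. Cyc1, the cytochrome c1 subunit, was at 80.4 and 83.3 in Gel and 54.6 and 61.9 in CuNZ@Gel, with a log2 change of -0.49 ± 0.08 (adjusted p = 1.6e-05). The 2 catalytic nuclear genes, Uqcrfs1 and Cyc1, were both lowered with and without the correction. Uqcrc2, a core protein, was lowered at a log2 change of -0.39 ± 0.07 and, after the correction, of -0.33. Uqcrh, the hinge protein and the most highly expressed of the complex per kilobase, was at 356 and 320 in Gel and 258 and 293 in CuNZ@Gel. Its log2 change of -0.29 ± 0.07 (adjusted p = 8.0e-04) became 0.071 after the correction and was then not called.

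Cytochrome c itself, which shuttles electrons between complexes III and IV, was not called with the deposited values. Cycs was at 196 and 206 scaled CPM in Gel and 211 and 228 in CuNZ@Gel, with a log2 change of 0.13 ± 0.06 (adjusted p = 0.085). Both CuNZ@Gel values were above both Gel values. Cycs was raised at 0.32 with total reads only (adjusted p = 2.6e-04), but was at 0.021 and not called after the length and GC correction (adjusted p = 0.74).

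Complex IV, the cytochrome c oxidase, was mixed. Of its 14 tested genes 9 were lowered, 3 were raised and 2 were not called, with a median of -0.25 that turned to 0.16 after the correction, when 5 were lowered and 6 raised. The summed level was 2565 and 2466 scaled CPM in Gel and 1947 and 2171 in CuNZ@Gel. The groups did not overlap for any of the 14 genes, 10 lower and 4 higher in CuNZ@Gel. Among all tested genes 83.2% did not overlap in either direction, 43.5% lower and 39.8% higher in CuNZ@Gel.

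Cox6a2 changed most of all 101 genes. It encodes the form of subunit 6a known from heart and skeletal muscle, and was at 27.5 and 30.6 scaled CPM in Gel and 1.76 and 1.59 in CuNZ@Gel, 17.3-fold higher in Gel. The group sums behind these values were 772 and 53 reads. Its log2 change was -3.49 ± 0.15 (adjusted p = 1.7e-14), and -3.09 after the correction. The widely expressed form, Cox6a1, was at 181 and 175 in Gel and 136 and 156 in CuNZ@Gel, with a log2 change of -0.28 ± 0.07 (adjusted p = 0.0013), which became 0.22 and raised after the correction. Per kilobase of transcript, Cox6a2 made up 11.3% and 12.8% of the summed level of both forms in Gel and 1.07% and 0.845% in CuNZ@Gel. The makeup of the 6a pair therefore differed between the groups far beyond the spread of the libraries.

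Cox7a2l, whose protein tethers complexes III and IV in supercomplexes, was at 193 and 183 scaled CPM in Gel and 81.5 and 89.8 in CuNZ@Gel. The log2 change of Cox7a2l was -1.13 ± 0.07 (adjusted p = 8.2e-12), and -0.87 after the correction. Its relative Cox7a2, the widely expressed subunit 7a, rose, with 102 and 106 in Gel and 130 and 148 in CuNZ@Gel, a log2 change of 0.41 ± 0.07 (adjusted p = 3.6e-05) and 0.80 after the correction. Among the 7a family the supercomplex form and the enzyme subunit thus moved in opposite directions. The muscle form Cox7a1 was low, at 1.88 and 1.71 in Gel and 1.26 and 1.65 in CuNZ@Gel, and was not called (adjusted p = 0.40).

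Cox7b and Ndufa4 were the other raised genes of complex IV. Cox7b, a small membrane subunit, was at 212 and 214 scaled CPM in Gel and 255 and 272 in CuNZ@Gel, with a log2 change of 0.31 ± 0.06 (adjusted p = 1.6e-04). Ndufa4, a subunit bound at the outside of the enzyme, was at 82.8 and 89.1 in Gel and 106 and 117 in CuNZ@Gel, with a log2 change of 0.37 ± 0.07 (adjusted p = 1.3e-04). Both were raised with no overlap of the groups, and after the correction Cox7b was at 0.50 and Ndufa4 at 0.65. By contrast Cox4i1, a subunit joined early to the mitochondrial core and the highest of all respiratory chain genes per kilobase in Gel, was lowered, with 602 and 569 in Gel and 354 and 404 in CuNZ@Gel. Its log2 change was -0.63 ± 0.07 (adjusted p = 3.6e-08), and -0.18 after the correction. Cox5b, which binds zinc on the matrix side, was at 264 and 234 in Gel and 150 and 170 in CuNZ@Gel, with a log2 change of -0.63 ± 0.07 (adjusted p = 1.3e-07) and -0.35 after the correction. Cox8a, the smallest subunit, had a log2 change of -0.22 ± 0.07 (adjusted p = 0.0083) that became 0.28 and raised after the correction, and its call was lost without Gel replicate 1 or without CuNZ@Gel replicate 1. Cox6b1, which helps join the enzyme into dimers, was not called at 0.10 ± 0.07 (adjusted p = 0.21), but was raised at 0.47 after the correction and at 0.28 with total reads only.

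Apart from Cox6a2 and Cox7a1, the alternative forms of complex IV subunits were near or at 0. Cox4i2, Cox8b and Ndufa4l2 stayed under 1 scaled CPM in each library and were not tested, and Cox6b2, Cox7b2 and Cox8c were at 0 in all 4 libraries. A count of 0 allowed at most 0.189 to 0.234 scaled CPM, the value of 3 reads, which covers counting error only.

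**Figure D2:**
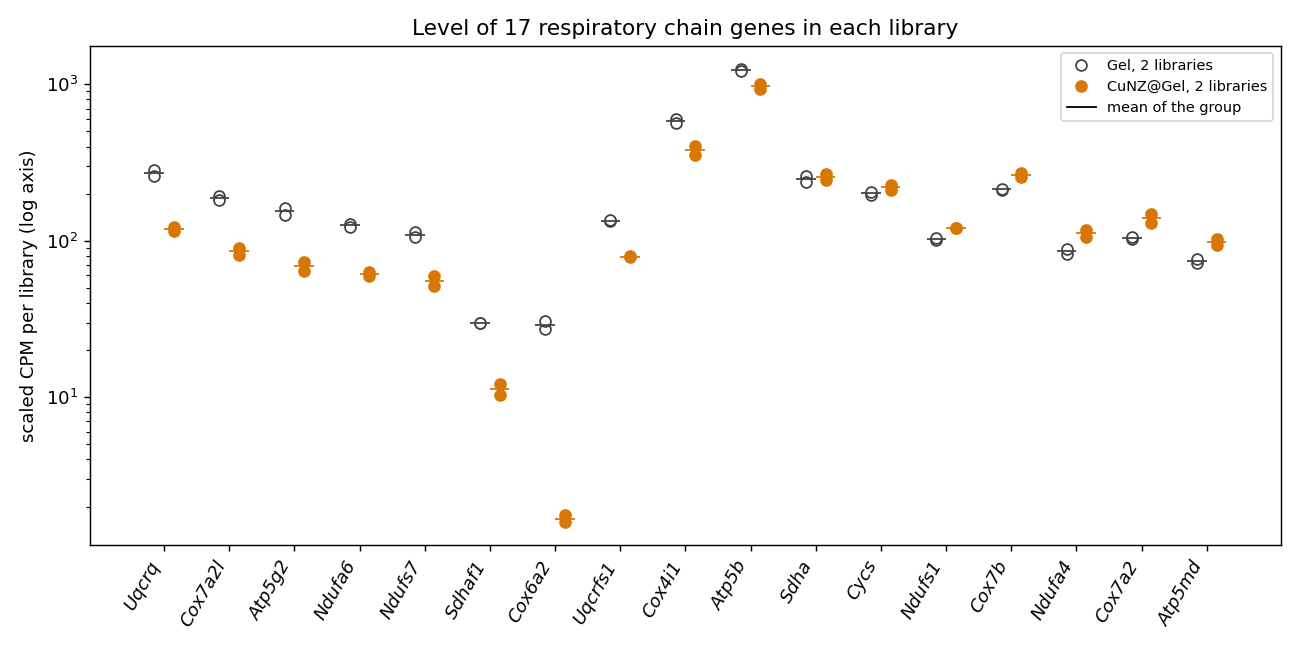
Level of 17 respiratory chain genes in each of the 4 libraries, in scaled CPM on a log axis. Open circles are the 2 Gel libraries, filled circles the 2 CuNZ@Gel libraries, and lines the group means. Genes from Uqcrq to Atp5b are lower in both CuNZ@Gel libraries, Sdha overlaps, and Ndufs1 to Atp5md are higher.

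Complex V, the ATP synthase, differed between its parts. Of its 17 genes 9 were lowered, 2 were raised and 6 were not called, with a median of -0.35. Without CuNZ@Gel replicate 1 the median was -0.18. The summed level was 4481 and 4349 scaled CPM in Gel and 3463 and 3733 in CuNZ@Gel. After the correction 7 were lowered and 8 raised, with a median of -0.015.

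The F1 head, which makes ATP, had 5 of 5 genes lowered, with log2 changes from -0.63 to -0.36 and a median of -0.42. Atp5b, the catalytic beta subunit, was at 1260 and 1222 scaled CPM in Gel and 938 and 1002 in CuNZ@Gel, with a log2 change of -0.36 ± 0.06 (adjusted p = 2.6e-05). Atp5a1, the alpha subunit, was at 702 and 680 in Gel and 497 and 540 in CuNZ@Gel, with a log2 change of -0.42 ± 0.06 (adjusted p = 3.9e-06). Atp5d, the delta subunit of the central stalk, was at 182 and 151 in Gel and 103 and 112 in CuNZ@Gel, with a log2 change of -0.63 ± 0.08 (adjusted p = 5.0e-07). Of the 5 genes of the head, 4 were also lowered after the correction, and the epsilon gene Atp5e was not called at -0.015. With total reads only all 5 were lowered.

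The membrane part, made of small subunits around the proton channel, had 0 of 5 genes lowered and 1 raised, with a median of -0.011. The raised gene was Atp5md, a small subunit of the dimer interface, at 71.7 and 76.5 scaled CPM in Gel and 93.4 and 103 in CuNZ@Gel. For Atp5md the log2 change was 0.40 ± 0.08 (adjusted p = 7.8e-05), and 0.34 after the correction. All 5 genes of the membrane part were raised after the correction. The head and the membrane part of the ATP synthase thus held no call in the same direction, although the difference between these lists was not itself tested. The peripheral stalk, which holds the head still, had 2 of 4 genes lowered, Atp5o and Atp5h, and 0 raised. Atp5o, the stalk subunit that binds the head, was at 231 and 210 in Gel and 139 and 152 in CuNZ@Gel, with a log2 change of -0.60 ± 0.07 (adjusted p = 1.4e-07) and -0.22 after the correction.

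The c ring, the rotor that protons turn, is encoded by 3 genes whose mature proteins are the same. Atp5g2, whose promoter with an NRF1 motif is printed above, was at 162 and 146 scaled CPM in Gel and 64.5 and 73.5 in CuNZ@Gel, 2.23-fold higher in Gel. For Atp5g2 the log2 change was -1.15 ± 0.08 (adjusted p = 3.6e-11), and -0.52 after the correction. Atp5g3 was at 160 and 159 in Gel and 168 and 189 in CuNZ@Gel, with a log2 change of 0.16 ± 0.07 (adjusted p = 0.038) and 0.51 after the correction. The call of Atp5g3 was lost without Gel replicate 1, Gel replicate 2 or CuNZ@Gel replicate 2, each left out in turn. Atp5g1 was lower than either, at 50.8 and 46.2 in Gel and 33.8 and 42.5 in CuNZ@Gel. Its log2 change was -0.35 ± 0.10 (adjusted p = 0.0045) and -0.57 after the correction, and its call with the deposited values was lost without CuNZ@Gel replicate 1. The correction took Atp5g1 at 4715 nucleotides, against 753 for Atp5g2 and 723 for Atp5g3, so the order after it depends on that choice. Per kilobase, Atp5g2 made up 49.4% and 46.8% of the sum of Atp5g2 and Atp5g3 in Gel and 26.9% and 27.2% in CuNZ@Gel. The share of Atp5g2 was lower in each CuNZ@Gel library than in each Gel library.

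Among the assembly factors found by the symbol rule, all of complexes I to III, no gene was raised. Of 18 such genes 10 were lowered, 0 were raised and 8 were not called, with a median of -0.31, while of 82 tested subunits 57 were lowered and 6 raised, with a median of -0.36. The raised subunits were 1 of complex I, 3 of complex IV and 2 of complex V. The rule found no assembly factors of complexes IV and V, so the classes also differ in their complexes. The difference between the 2 classes was not tested. By complex, 5 of 8 factors of complex I, 2 of 4 of complex II and 3 of 6 of complex III were lowered. After the correction 7 of 15 assembly factors were lowered and 2 raised, with a median of -0.21. Of the 82 subunits 31 were then lowered and 23 raised, with a median of -0.032. The shares of all tested genes were 34.8% lowered and 32.2% raised with the deposited values. After the correction these shares were 36% and 29.7%. Assembly factors were expressed at low levels, with a sum of 437 and 422 scaled CPM in Gel and 334 and 348 in CuNZ@Gel.

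Sdhaf1, which helps deliver iron-sulphur clusters to Sdhb, was at 29.8 and 29.7 scaled CPM in Gel and 10.3 and 12.1 in CuNZ@Gel, 2.65-fold higher in Gel. For Sdhaf1 the log2 change was -1.34 ± 0.12 (adjusted p = 2.2e-09), and -1.26 after the correction. Sdhaf3, which acts in the same step, was at 7.83 and 6.93 in Gel and 2.59 and 4.31 in CuNZ@Gel, with a log2 change of -0.94 ± 0.18 (adjusted p = 1.3e-04) and -1.17 after the correction. The factors of this iron-sulphur step were thus lowered with no overlap of the groups. Sdhaf2, which serves the attachment of the flavin to Sdha, was not called at -0.035 ± 0.087 (adjusted p = 0.74), nor was Sdhaf4 at 0.089 ± 0.123 (adjusted p = 0.54). After the correction Sdhaf2 was lowered at -0.21 and Sdhaf4 raised at 0.36.

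Ndufaf6, an assembly factor of complex I, was at 12.8 and 16.8 scaled CPM in Gel and 7.19 and 8.76 in CuNZ@Gel. For Ndufaf6 the log2 change was -0.81 ± 0.15 (adjusted p = 6.4e-05), and -0.54 after the correction. Uqcc3, which acts with cytochrome b early in the assembly of complex III, was at 35.9 and 31.2 in Gel and 18.5 and 20.0 in CuNZ@Gel. For Uqcc3 the log2 change was -0.77 ± 0.11 (adjusted p = 1.9e-06), and -0.40 after the correction. Both factors were lower in each CuNZ@Gel library than in each Gel library. Uqcc2, its partner, was lowered at -0.27 ± 0.08 (adjusted p = 0.0040) and turned to 0.24 and raised after the correction.

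**Figure D3:**
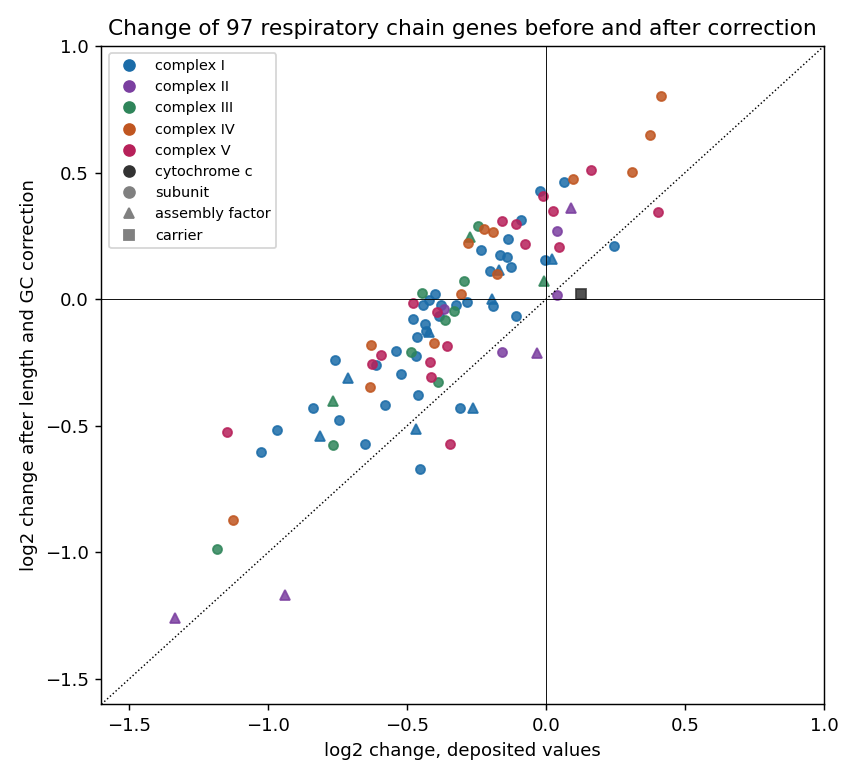
Log2 change of respiratory chain genes with the deposited values (horizontal axis) and with values corrected for length and GC content of the transcript (vertical axis), both CuNZ@Gel minus Gel. Colours mark complexes, circles subunits, triangles assembly factors and the square Cycs, and the dotted line marks equal values; Cox6a2, at -3.49 and -3.09, lies outside the axes. Most points lie above the dotted line, and Uqcrq, Cox7a2l, Sdhaf1 and Sdhaf3 stay at or below -0.87 on the vertical axis.

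Assembly factors with other symbols were read from a separate list. Of 42 tested, 28 were lowered and 4 raised, Coa5, Cox17, Pet117 and Ttc19, with a median of -0.38. Among all tested genes 34.8% were lowered and 32.2% raised. After the correction 20 were lowered and 4 raised, against 36% and 29.7% of all genes so treated. Bcs1l, which inserts the Rieske protein into complex III, was at 24.7 and 24.3 scaled CPM in Gel and 8.13 and 7.49 in CuNZ@Gel, with a log2 change of -1.53 (adjusted p = 6.0e-10) and -1.36 after the correction. Bcs1l and its client Uqcrfs1 were both lowered. Foxred1, a factor of complex I, had a log2 change of -0.90 and Cmc1, a factor of complex IV, of -0.82. Coa5, a factor of complex IV, was raised, with 67.6 and 75.6 in Gel and 127 and 110 in CuNZ@Gel and a log2 change of 0.72 (adjusted p = 8.4e-08). Pet117 was at 0.570 and 0 in Gel and 1.76 and 1.57 in CuNZ@Gel, so its fold rests on few reads.

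Regulators of respiratory genes and of mitochondrial DNA were read from a further list. Of 18 tested, 13 were lowered and 1, Tfb2m, was raised, with a median of -0.29, and after the correction 12 were lowered and 2 raised. With total reads only 6 were lowered and 4 raised. Among all tested genes 34.8% were lowered and 32.2% raised with the deposited values. The shares were 36% and 29.7% after the correction, and 24.7% and 43.4% with total reads only. Nrf1, the factor whose motif was searched above, had a log2 change of -0.41 (adjusted p = 0.0010). The GABP subunit genes Gabpa and Gabpb2 were lowered at -0.27 (adjusted p = 0.0095) and -0.53 (adjusted p = 2.3e-06), and the call of Gabpa was lost with total reads only. Yy1 was not called at 0.0015 (adjusted p = 0.99), but was lowered at -0.25 after the correction and raised at 0.19 with total reads only. Tfam, which packs mitochondrial DNA, was at 78.6 and 79.6 scaled CPM in Gel and 49.1 and 52.3 in CuNZ@Gel, with a log2 change of -0.63 (adjusted p = 3.2e-07). Ssbp1, the binding protein of single-stranded mitochondrial DNA, had a log2 change of -1.12 (adjusted p = 3.6e-11), and Tfb1m, which modifies mitochondrial ribosomal RNA, of -1.14 (adjusted p = 2.3e-07). The coactivator gene Ppargc1a was at 0 in 3 libraries and at 0.0629 in CuNZ@Gel replicate 1, and was not tested.

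Of the 13 mitochondrially encoded subunits 6 were raised, ND2, ND4, ND4L, ND5, COX1 and ATP8, and 3 were lowered, ND3, ND6 and ATP6, against 32.2% raised and 34.8% lowered among all tested genes. After the correction, and also with total reads only, 7 were raised and 1, ND3, was lowered. The shares of all genes were 29.7% raised and 36% lowered after the correction. With total reads only they were 43.4% raised and 24.7% lowered. The difference between mitochondrial and nuclear genes was not itself tested. For complex I the ratio of the mitochondrial to the nuclear sum was 4.77 and 5.60 in Gel and 8.36 and 7.26 in CuNZ@Gel. The ratio for complex III was 7.50 and 8.88 in Gel and 12.1 and 10.5 in CuNZ@Gel. For complex IV it was 12.8 and 14.5 in Gel and 20.6 and 17.6 in CuNZ@Gel. In these 3 complexes each CuNZ@Gel library had more mitochondrial reads per nuclear read than each Gel library. In complex V the ratio was 4.48 and 5.27 in Gel and 5.62 and 5.10 in CuNZ@Gel, and the groups overlapped. These ratios are free of the scaling of the libraries, and with 2 libraries a group no test was made on them. They use values without the length and GC correction. That correction moved the median log2 change from -0.36 to -0.032 for the 82 tested nuclear subunits. For the 13 mitochondrial genes it moved the median from 0.13 to 0.28. Overlapping mitochondrial genes such as ND4L with ND4 and ATP8 with ATP6 may share reads, so their separate values are uncertain.

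**Figure D4:**
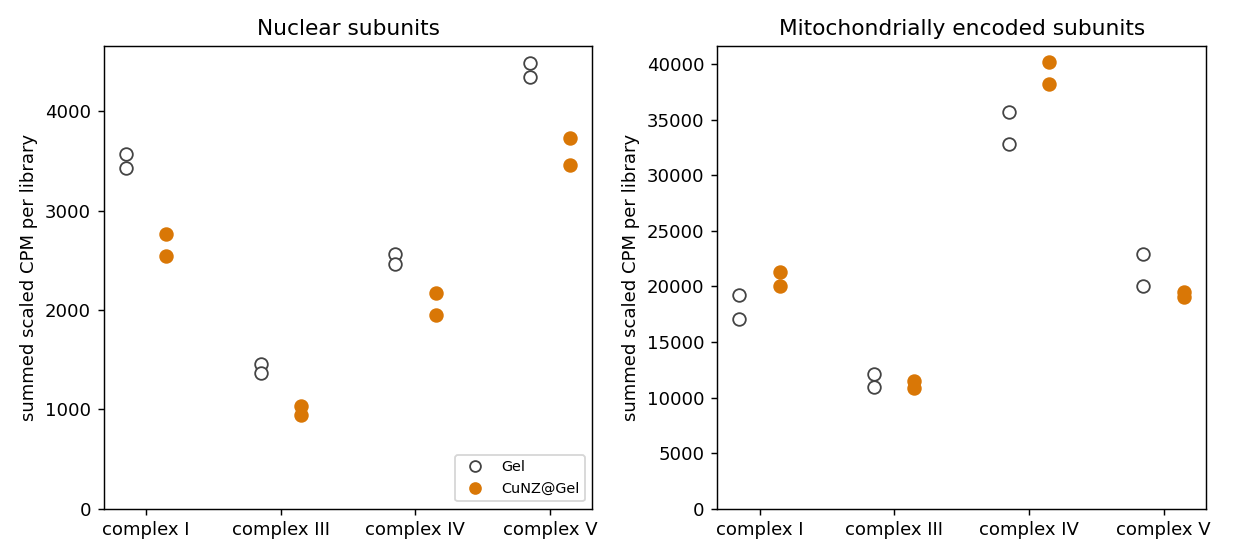
Summed scaled CPM of nuclear (left) and mitochondrially encoded (right) subunits of complexes I, III, IV and V in each of the 4 libraries. Open circles are Gel and filled circles CuNZ@Gel. The nuclear sums are lower in both CuNZ@Gel libraries for each complex, while the mitochondrial sums are higher for complexes I and IV, overlap for complex III and are lower for complex V.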

How the data were processed

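The deposited files held 1 log2 value per symbol and library. The tools named in the submitters' processing notes are STAR, Salmon, fastp and GATK, with the mouse build GRCm39. Tool versions and settings, strand use and the normalization: not given in the sources used here. Judged from the deposited values, each was log2(x + 1), with x in CPM divided by a further factor per library (0.937 and 0.936 in Gel, 1.07 and 1.07 in CuNZ@Gel). Between 92.6% and 93.5% of low values were whole multiples of the value of 1 read within 0.02 reads, which gave the library totals. Libraries of a group differed by more than counting error, with a chi-square per gene of 3.53 in Gel and 4.13 in CuNZ@Gel.

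limma 3.58.1 (R 4.3.3) with a variance trend was fitted to all 4 libraries with the group as the term. Only genes that reached 1 scaled CPM in 2 or more libraries entered, and p-values had Benjamini-Hochberg adjustment with a threshold of 0.05. The count test planned first was replaced because the files held log2 values. The log2 scale with a pseudocount of 1 understates changes at low levels. Levels are given per library, and an error after ± is the standard error of the log2 change. That error draws on the variance trend over genes as well as on the gene's own 4 libraries. The length and GC correction removed splines with 5 degrees of freedom per library, using the longest coding transcript of GENCODE vM21. It covered 95.9% of tested genes, and no coordinates were taken from that annotation, which is on another build. Uqcc4, Uqcc5 and Uqcc6 had no transcript there. The corrected values and the values per kilobase depend on this choice of the longest transcript. Only the filter and the limma fit were run on simulated libraries. These held few changed genes and no length or GC trend, so the length and GC correction was not tested there.

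The rule for named genes took all raised members, up to 4 lowered members per complex, up to 4 lowered assembly factors, members of isoform groups, the complex II subunits, some anchors and up to 4 genes of each other list. Other genes named were chosen after their values were seen. The members and lists were chosen with earlier results of these data known. Alternatives were other scalings, limma-voom on recovered reads, other filters and pseudocounts, a minimum fold, removal of mitochondrial and ribosomal RNA genes, a replicate block and leaving out each library.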

Additional observations from a re-analysis of the deposited data

How the results depend on the processing

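The main counts were 67 lowered and 6 raised. Leaving out each library in turn gave 57 to 70 lowered and 5 to 7 raised, and medians from -0.45 to -0.31 for complex I subunits, -0.096 to -0.044 for complex II, -0.39 to -0.18 for complex V and -0.31 to -0.28 for assembly factors. With total reads only, 13 were raised, and the medians were -0.17 for all members, -0.22 for complex I, 0.13 for complex II (direction turned), -0.20 for complex III, -0.085 for complex IV, -0.16 for complex V and -0.14 for assembly factors, and Sdhc turned to 0.027. After the length and GC correction 38 were lowered and 25 raised, and the medians in the same order were -0.042, -0.066, -0.011, -0.081, 0.16 (direction turned), -0.015 and -0.21, while Cox6a1 turned to 0.22, Cox8a to 0.28 and Uqcrh to 0.071. The cause was not tested beyond the construction of each setting. A minimum fold of 1.5 gave 9 lowered and 0 raised. For assembly factors the median was -0.29 with upper-quartile factors, -0.34 with limma-voom, -0.34 with a pseudocount of 0.1 and -0.37 without mitochondrial and ribosomal RNA genes, where complex II was at -0.12. Without a filter 52 were lowered, and limma-voom gave 67 lowered and 6 raised.

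The labels do not say whether same-numbered libraries were paired. Deviations of same-numbered libraries correlated at r = -0.12 over genes, which with 2 libraries a group cannot settle this. With the replicate number as a block 63 were lowered and 5 raised, and with the crossed pairing, added after seeing the data, 72 were lowered and 7 raised. With 2 libraries a group and 13718000 reads in the shallowest library, small changes of genes at low levels were not detectable.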
